A study of Mus musculus with 9 samples.

Results

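Levels of 9 genes of arginine metabolism and alternative macrophage activation (Arg1, Arg2, Nos2, Chil3, Retnla, Mgl2, Clec10a, Mrc1 and Egr2) were followed through 9 libraries. The genes were taken by name from a count table of 51826 gene rows, and each matched 1 row. Macrophages can spend the amino acid arginine in more than one way. Nitric oxide synthase 2, encoded by Nos2, turns it into nitric oxide and citrulline, while the arginases Arg1 and Arg2 split it into ornithine and urea, and ornithine feeds the polyamines and proline. In mouse macrophages Nos2 is a classical mark of cells activated by interferon gamma and bacterial products. Arg1 is a mark of alternative activation, the state driven by interleukin 4 and interleukin 13 through the transcription factor STAT6, together with the chitinase-like secreted protein Chil3 (Ym1), the secreted protein Retnla (Fizz1), the galactose-type lectins Mgl2 and Clec10a, the mannose receptor Mrc1 and the transcription factor Egr2.

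RNA had been sequenced from BMMs, mouse macrophages derived from bone marrow precursors in culture. The groups, of 3 libraries each, were BMMs given medium conditioned by K7M2 cells, a mouse osteosarcoma line, plus DTM for 48 h (CM plus DTM), BMMs given that medium alone for 48 h (CM), and BMMs labelled control. The labels do not say what DTM is, and give control no time or medium, so time and medium cannot be told apart from the effect of conditioned medium. Whether the 3 libraries of a group stem from separate cultures or animals is not stated. The p-values therefore measure the spread between these libraries alone, and that spread may be technical.

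Library totals ran from 43084296 to 50407973 counts. Levels are given as CPM, counts relative to the TMM-scaled library size, and fold changes come from edgeR's quasi-likelihood test over 15429 genes, with Benjamini-Hochberg adjusted p and a threshold of 0.05. Library CM 1 stood apart from CM 2 and 3 (correlation of log2 CPM 0.962 and 0.959, against 0.994 between CM 2 and 3), and CM plus DTM 1 from CM plus DTM 2 and 3 (0.934 and 0.949, against 0.988). All 10 macrophage markers, among them Csf1r and Adgre1, had counts in every library, and their summed level was 32147 to 43525 CPM in CM plus DTM, 36488 to 37912 in CM and 26456 to 46689 in control, most of it from Lyz2 (20480 to 38712 CPM). Of these markers, Mertk (0.78, adjusted p = 0.0485) and Fcgr1 (1.84, adjusted p = 0.0485) rose in CM against control on the log2 scale, and Csf1r and Adgre1, not called, lay wholly below control in CM. The 8 dendritic cell markers, which matter because dendritic cells also express Mgl2 and Clec10a, summed to 0.537 to 1.16 CPM in CM plus DTM, 0.619 to 0.958 in CM and 0.489 to 0.98 in control. The dendritic cell gene Flt3 had 2 counts in control 2 and 0 in the other libraries.

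Promoters were found in the RefSeq table for 5 of the 9 genes (Mrc1, Chil3, Egr2, Mgl2 and Retnla; build GRCm38.p6, windows of 300 bases from 250 before the annotated start). The 4 windows printed show a gene with no counts (Retnla) and the gene with the largest rise (Mgl2). The others are a tested gene that edgeR called in no comparison (Chil3) and an early response gene (Egr2, 1 of its 5 windows). Capitals mark AGGAAGT on either strand, a site of the ETS family factors to which the macrophage factor PU.1 belongs. They also mark TTCNNNNGAA, the spacing that STAT6 prefers. The CArG box, bound by serum response factor (CC and GG around 6 bases that are each A or T), is marked too.

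Retnla, chr16:48842359-48842658, plus strand: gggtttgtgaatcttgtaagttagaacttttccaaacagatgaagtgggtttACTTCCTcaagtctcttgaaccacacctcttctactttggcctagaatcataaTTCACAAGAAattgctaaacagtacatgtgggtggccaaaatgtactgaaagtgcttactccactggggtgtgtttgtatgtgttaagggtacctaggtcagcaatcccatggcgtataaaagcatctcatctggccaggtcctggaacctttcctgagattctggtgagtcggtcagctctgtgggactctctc
Mgl2, chr11:70130107-70130406, plus strand: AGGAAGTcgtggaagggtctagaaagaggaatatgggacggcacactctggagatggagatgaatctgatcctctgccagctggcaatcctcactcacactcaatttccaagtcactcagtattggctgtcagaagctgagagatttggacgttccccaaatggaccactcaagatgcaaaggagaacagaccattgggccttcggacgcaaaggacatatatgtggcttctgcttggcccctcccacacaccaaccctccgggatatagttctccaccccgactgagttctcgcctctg
Chil3, chr3:106167515-106167814, minus strand: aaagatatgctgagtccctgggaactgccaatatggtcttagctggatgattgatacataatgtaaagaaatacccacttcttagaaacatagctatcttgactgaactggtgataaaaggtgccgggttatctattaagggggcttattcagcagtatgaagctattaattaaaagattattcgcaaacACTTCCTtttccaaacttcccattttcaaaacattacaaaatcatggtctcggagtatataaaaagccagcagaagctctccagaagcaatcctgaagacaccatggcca
Egr2, chr10:67537619-67537918, plus strand: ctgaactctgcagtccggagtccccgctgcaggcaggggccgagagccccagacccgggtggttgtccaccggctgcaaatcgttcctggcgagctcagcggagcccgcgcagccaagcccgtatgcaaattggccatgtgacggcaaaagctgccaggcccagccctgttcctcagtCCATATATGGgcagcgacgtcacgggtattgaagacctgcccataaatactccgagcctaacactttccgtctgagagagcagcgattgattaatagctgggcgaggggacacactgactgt

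The motifs were chosen with the sequences in view. AGGAAGT was found in the windows of Mgl2, Mrc1, Chil3 and Retnla, beginning 250, 211, 60 and 198 bases before the start, and in none of the Egr2 windows. Of 32851 promoter windows in the table, 9.35% held it. Of the 5 genes, TTCNNNNGAA occurred in Retnla alone, as TTCACAAGAA beginning 145 bases before the start, and in 6.95% of all windows. A CArG box was found at 2 sites in Egr2, of which 3 overlapping windows share one, CCATATATGG, beginning 72 bases before the start in the window printed. It was found in 1.63% of all windows. These matches describe the letters of the windows and say nothing of binding.

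Both arginases, both lectins, the mannose receptor and Egr2 were higher in CM than in control. Mgl2, which had few reads in control, had the largest fold change, and Clec10a had the smallest error. Chil3 did not pass the test, Nos2 had few reads and Retnla none. Of the 9 genes, 7 passed the count filter and were tested: 6 rose in CM against control and 0 fell, where 4.04% of all genes tested rose and 1.57% fell. For the same 6, every CM library lay above every control library, as did 18.3% of all genes. The median log2 fold change of the 7 was 3.20, beside -0.01 over all genes tested. Of the genes called, 72% were higher in CM; with total count scaling 47.2% were (median of all genes then -0.21), and the genes of the 9 called were the same but for Mrc1.

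**Figure D1:**
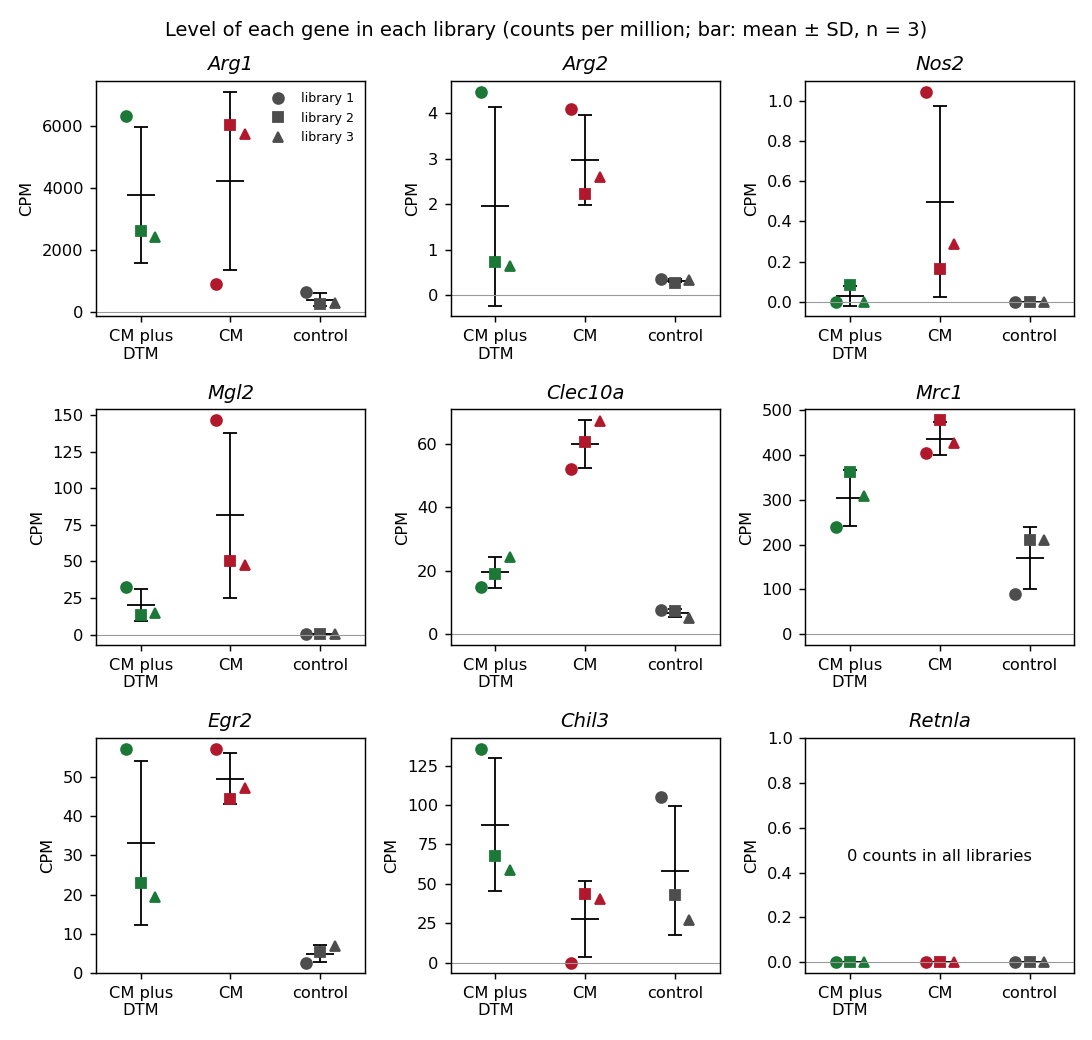
Level of each of the 9 genes in CPM (vertical axis, from 0) in the CM plus DTM, CM and control libraries (points; circle, square and triangle are libraries 1, 2 and 3), with mean and SD of 3 libraries as bars. Mgl2 and Clec10a were highest in CM, intermediate in CM plus DTM and lowest in control, Arg1 was low in CM 1, Chil3 had 0 counts in CM 1 and Retnla had 0 counts in every library.

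Arg1, the cytosolic arginase, was the most abundant of the 9 in every library per transcript length. It stood at 6299, 2592 and 2400 CPM in CM plus DTM 1, 2 and 3, at 896, 6024 and 5721 CPM in CM 1, 2 and 3, and at 631, 270 and 300 CPM in control 1, 2 and 3. The number 1 libraries ran against each other, CM 1 low in its group and CM plus DTM 1 high in its own, and the lowest CM library was still above the highest control. The log2 fold change in CM against control was 3.40 (SE 0.74, adjusted p = 0.0301). The call was lost without CM 2, CM 3 or any 1 control library, with adjusted p up to 0.133, and held without CM 1 (3.88, adjusted p = 0.00638).

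Arg2, the mitochondrial arginase, was far rarer. Its level was 4.46, 0.739 and 0.645 CPM in CM plus DTM, 4.09, 2.22 and 2.59 CPM in CM, and 0.356, 0.280 and 0.326 CPM in control. In control these were 16 to 18 counts a library. All CM libraries lay above all control libraries, and CM plus DTM 1 was about as high as CM 1 while CM plus DTM 2 and 3 were below every CM library. The log2 fold change in CM against control was 3.20 (SE 0.76, adjusted p = 0.0429), and the call was lost without any 1 library of CM or control (adjusted p up to 0.166).

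Nos2 was close to absent. Its counts were 0, 4 and 0 in CM plus DTM, 53, 7 and 13 in CM and 0, 0 and 0 in control, and it failed the count filter. A count of 0 allows at most 3 counts, or 0.0525 to 0.0611 CPM in the control libraries. The mean of CM, 0.499 ± 0.478 CPM (SD, n = 3), was thus 8.67-fold that limit averaged over control. The fold was 3.92 without CM 1, and 2.84 for CM 2, the lowest CM library. These folds allow for counting error in control only, and CM enters them as measured. Tested by edgeR with no count filter, Nos2 had an adjusted p of 0.0654 in CM against control. Its adjusted p in CM plus DTM was 0.149 against CM and 0.434 against control. In the fit without CM plus DTM 1, Nos2 passed the count filter and was called higher in CM than in control.

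The balance of the arginase and nitric oxide synthase transcripts was taken within each library, without library scaling. The log2 ratio of Arg1 to Nos2 counts, with 0.5 added to each, was 18.8, 14.7 and 17.8 in CM plus DTM, 9.73, 15.1 and 14.2 in CM, and 16, 14.9 and 14.8 in control. Where Nos2 had 0 counts the ratio is set by the Arg1 count and the added 0.5, and so also depends on sequencing depth. The difference of means was -2.23 in CM minus control (exact permutation test, two-sided, p = 0.3), 4.10 in CM plus DTM minus CM (exact permutation test, p = 0.2) and 1.87 for CM plus DTM minus control (exact permutation test, p = 0.4). With 3 libraries against 3 the smallest p is 0.1. CM 1 was the lowest library, and without it the difference in CM minus control was -0.594 and that in CM plus DTM minus CM 2.46. With 2 counts added in place of 0.5 the differences were -0.385 in CM minus control, 2.78 in CM plus DTM minus CM and 2.40 in CM plus DTM minus control. With 2 counts added and CM 1 left out, an alternative chosen after seeing the data, the difference in CM minus control turned to 1.20, so its sign rests on the added count and on CM 1.

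Mgl2 and Clec10a encode closely related galactose-type lectins that bind galactose and N-acetylgalactosamine sugars, and reads may have been divided between the 2 genes. Mgl2 stood at 32.5, 13.1 and 14.5 CPM in CM plus DTM, at 147, 50.2 and 47.6 CPM in CM and at 0.593, 0.368 and 0.204 CPM in control, where it had 30, 21 and 10 counts. The 3 groups did not overlap. In CM against control its log2 fold change was 7.70 (SE 0.73, adjusted p = 0.0011). CM 1 held the highest level, and without it the fold change was 6.97 (adjusted p = 0.000983).

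Clec10a stood at 14.9, 19.0 and 24.4 CPM in CM plus DTM, at 52.1, 60.7 and 67.0 CPM in CM and at 7.63, 7.27 and 5.23 CPM in control. Its groups were apart as those of Mgl2 were, with far less spread inside each. The log2 fold change in CM against control was 3.16 (SE 0.25, adjusted p = 0.000764). The calls of Mgl2 and Clec10a held in all 9 fits that each lacked 1 library. In CM 1, where Mgl2 was highest of all libraries, Clec10a was the lowest of its group.

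Mrc1, an endocytic receptor for mannose-bearing glycoproteins, was well expressed in every group. Its level was 239, 362 and 309 CPM in CM plus DTM, 405, 478 and 427 CPM in CM and 89.9, 211 and 210 CPM in control. The groups did not overlap, and control 1 was lower than the other 2 control libraries. Its log2 fold change in CM against control was 1.36 (SE 0.31, adjusted p = 0.0385). That call was lost in 8 of the 9 fits without 1 library, all but the one without CM plus DTM 1 (adjusted p up to 0.121), and with total count scaling (1.14, adjusted p = 0.093).

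Egr2, a zinc finger factor induced early by interleukin 4 and by other stimuli, stood at 57.2, 22.8 and 19.4 CPM in CM plus DTM, at 57.0, 44.5 and 47.2 CPM in CM and at 2.61, 5.34 and 6.88 CPM in control. Both treated groups lay wholly above control. The log2 fold change in CM against control was 3.33 (SE 0.49, adjusted p = 0.00631), and the call held in all 9 fits without 1 library.

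**Figure D2:**
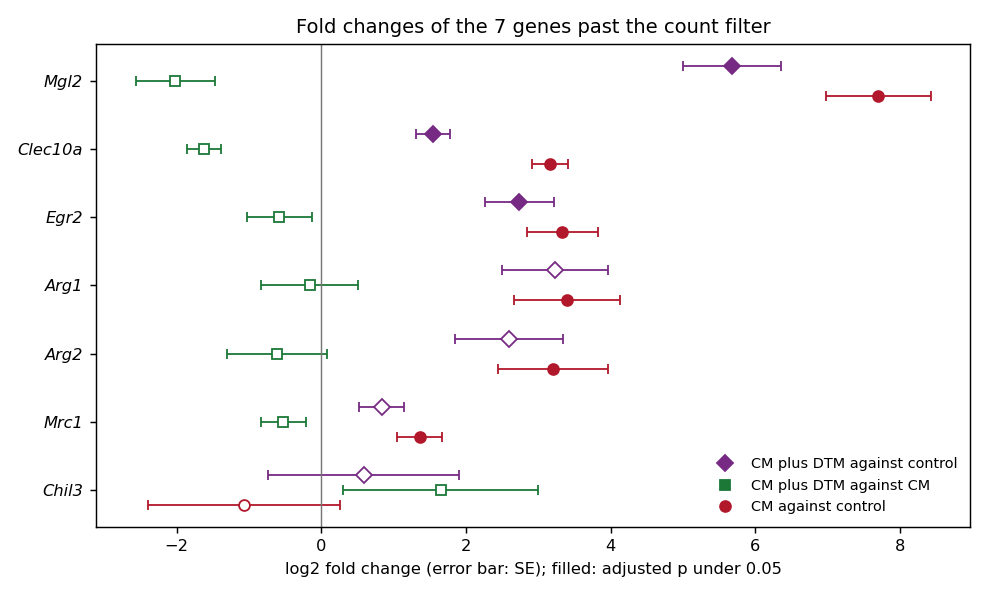
Log2 fold change with its SE (horizontal axis) of the 7 genes past the count filter, for CM plus DTM against control (diamonds), CM plus DTM against CM (squares) and CM against control (circles); filled symbols have adjusted p under 0.05. In CM against control 6 of 7 are filled, in CM plus DTM against control 3, and in CM plus DTM against CM 0, with Mgl2 (-2.02) and Clec10a (-1.62) furthest below 0.

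Chil3 was not called in any comparison. It stood at 136, 68.0 and 58.7 CPM in CM plus DTM, at 0, 43.6 and 40.1 CPM in CM and at 105, 43.0 and 27.3 CPM in control. CM 1 had 0 counts, which allows up to 0.0593 CPM, while CM 2 and 3 lay within the range of control. In CM against control the log2 fold change was -1.07 (SE 1.33, adjusted p = 0.698), and -0.479 without CM 1 (adjusted p = 0.714). By limma-voom it was -4.42 (adjusted p = 0.291).

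Chil3 is also made by neutrophils and their precursors, and its level moved with their granule genes. The genes with the most similar pattern over the 9 libraries were Ltf (lactoferrin), S100a9 and Ngp, which neutrophil precursors express, with root mean square differences of 0.244, 0.275 and 0.585 on the log2 scale. Ltf stood at 91.6, 68.3 and 43.7 CPM in CM plus DTM, at 0, 36.6 and 34.1 CPM in CM and at 96.3, 42.9 and 27.7 CPM in control. The ratio of Chil3 to Ltf counts was 0.984 to 1.48 in the 8 libraries that had any. The 8 neutrophil markers summed to 352 to 1130 CPM in CM plus DTM, 1.52 to 284 in CM and 201 to 726 in control, and in CM 1 they summed to 1.52 CPM with 5 of the 8 at 0 counts. In these bulk libraries fewer cells of a type and less RNA per cell cannot be told apart, and the part of neutrophil RNA in the Chil3 level was not tested. The mesenchymal markers were low in CM 1 as well, at 154 CPM summed, beside 714 and 755 in CM 2 and 3, while they summed to 799 to 936 CPM in CM plus DTM and 782 to 1153 CPM in control.

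**Figure D3:**
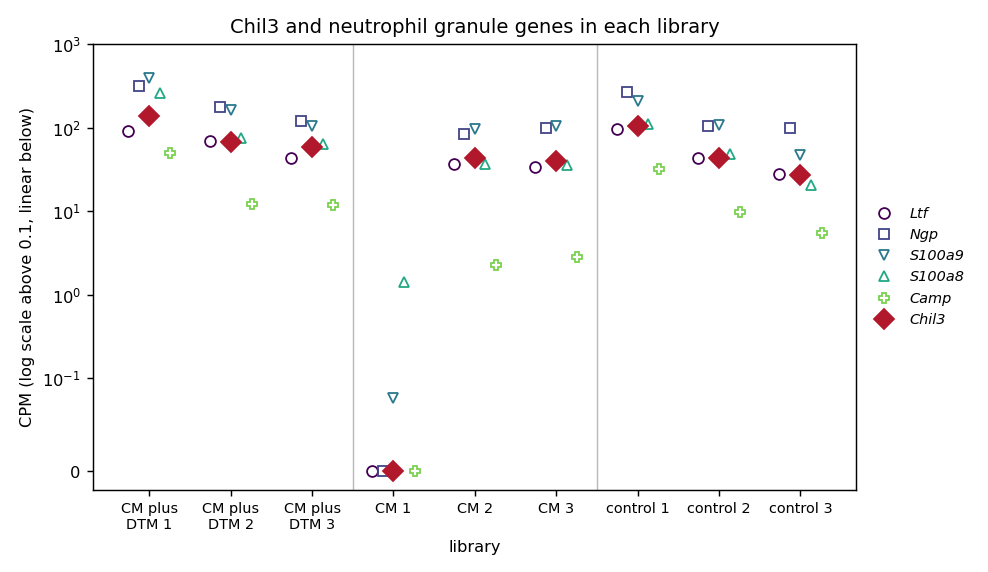
CPM of Chil3 (filled diamonds) and of 5 neutrophil granule genes (open symbols) in each of the 9 libraries; the axis is logarithmic above 0.1 and linear below. Chil3 lay beside Ltf in every library, and in CM 1 Chil3, Ltf, Ngp and Camp were all at 0.

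Retnla had 0 counts in every library, which allows at most 0.0525 to 0.0812 CPM. Its relative Retnlb also had 0 counts in every library, and Chil4, a close relative of Chil3, had at most 2. Retnla was thus not detectable at this depth in any group, and no fold is given.

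Per kilobase of the longest transcript in GENCODE vM21, the order of levels changed between groups. In CM it was Arg1 (2853 CPM per kb), Mrc1 (81.2), Mgl2 (49.8), Clec10a (25.7), Chil3 (18.1), Egr2 (16.7), Arg2 (2.08) and Nos2 (0.119). The range of Mgl2 overlapped that of Mrc1, and Chil3, at 0 in CM 1, overlapped Clec10a, Egr2, Arg2 and Nos2. In control the order was Arg1 (271), Chil3 (37.9), Mrc1 (31.7), Clec10a (2.88), Egr2 (1.67), Mgl2 (0.237) and Arg2 (0.224). Chil3 overlapped Mrc1 there, Clec10a overlapped Egr2 and Mgl2 overlapped Arg2. In CM plus DTM it was Arg1 (2548), Chil3 (56.9), Mrc1 (56.4), Mgl2 (12.3), Egr2 (11.2), Clec10a (8.34), Arg2 (1.37) and Nos2 (0.00672), where Chil3 overlapped Mrc1, and Mgl2, Egr2 and Clec10a overlapped each other. These lengths are approximate, since the annotation used for counting is not given in the sources used here.

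Adding DTM to the conditioned medium was assessed by setting CM plus DTM against CM. The lectins were lower with DTM in every library, and Mrc1 was lower in every library by less. No gene of the 9 passed the threshold, and none of the 15429 genes tested did by edgeR (0% called), although 28.3% had an unadjusted p under 0.05 and DESeq2 called 2827. Among the 7 genes tested, Mgl2 and Clec10a had an unadjusted p under 0.05, a share near the 28.3% of all genes. DESeq2 called these 2 genes. The CM plus DTM libraries lay wholly below the CM libraries for 3 of the 7, Mgl2, Clec10a and Mrc1, as for 17.8% of all genes, and wholly above them for 1, Chil3, as for 16.7%. The untested Nos2 also lay wholly below, with 0 to 4 counts in CM plus DTM against 7 to 53 in CM.

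Clec10a averaged 19.5 ± 4.76 CPM in CM plus DTM and 59.9 ± 7.47 CPM in CM (SD, n = 3 each), a log2 fold change of -1.62 (SE 0.24, adjusted p = 0.0611). Mgl2 averaged 20.03 ± 10.8 CPM in CM plus DTM and 81.4 ± 56.4 CPM in CM, a log2 fold change of -2.02 (SE 0.55, adjusted p = 0.0668). The difference of Mgl2 was -1.29 without CM 1 (adjusted p = 0.155), and that of Clec10a was called without CM plus DTM 2 (-1.60, adjusted p = 0.0247). For Mrc1 the fold change was -0.52 (SE 0.31, adjusted p = 0.291).

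For the arginases and Egr2 the groups overlapped, and CM plus DTM 1 was above every CM library. The log2 fold change in CM plus DTM against CM was -0.16 for Arg1 (SE 0.67, adjusted p = 0.901), -0.61 for Arg2 (SE 0.69, adjusted p = 0.589) and -0.58 for Egr2 (SE 0.45, adjusted p = 0.422). CM plus DTM 2 and 3 lay below CM 2 and 3 for Arg1, Arg2 and Egr2. Without CM 1 and CM plus DTM 1 the fold changes were -1.29 for Arg1 (adjusted p = 0.0754), -1.85 for Arg2 (adjusted p = 0.0266) and -1.17 for Egr2 (adjusted p = 0.092). In that fit Mgl2 (-1.88, adjusted p = 0.0253) and Clec10a (-1.61, adjusted p = 0.0177) were called too, 3 of the 9 genes in all. Of all genes tested, the same fit called 3.17% lower and 1.8% higher in CM plus DTM than in CM. The Arg1 fold change turned above 0 without CM 2 (0.19), CM 3 (0.14), CM plus DTM 2 (0.06) or CM plus DTM 3 (0.10), and was -0.65 without CM 1 and -0.81 without CM plus DTM 1. That of Arg2 was -2.14 without CM plus DTM 1 (adjusted p = 0.0552). Chil3 had a fold change of 1.65 (SE 1.35, adjusted p = 0.45), of 1.06 without CM 1, whose Chil3 count was 0, and of 5.13 by limma-voom (adjusted p = 0.173).

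Relative to control, the lectins and Egr2 stayed higher in CM plus DTM. The fold changes of this comparison share libraries with the 2 before it and are given as values of their own. Of the 7 genes tested, 3 rose and 0 fell, where 1.5% of all genes rose and 0.946% fell. Of the genes called, 61.4% were higher in CM plus DTM, and 39.2% with total count scaling (median of all genes then -0.24), where Arg1 passed the threshold (2.96, adjusted p = 0.0482). For 6 of the 7, all but Chil3, every CM plus DTM library lay above every control library, as for 16.7% of all genes. Mgl2 rose by 5.68 on the log2 scale (SE 0.67, adjusted p = 0.0086), Egr2 by 2.74 (SE 0.48, adjusted p = 0.025) and Clec10a by 1.54 (SE 0.24, adjusted p = 0.0185). Arg1 had a fold change of 3.23 (adjusted p = 0.055), Arg2 of 2.59 (adjusted p = 0.0933), Mrc1 of 0.83 (adjusted p = 0.15) and Chil3 of 0.58 (adjusted p = 0.814).

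The calls of this comparison were lost without single libraries. Without control 1, 2 or 3 those of Egr2 and Clec10a were lost (adjusted p up to 0.107 and 0.0919), without control 2 that of Mgl2 (adjusted p = 0.0639), and without CM 2 or 3 that of Egr2 (0.0557 and 0.0556). The fold change of Egr2 was 2.07 without CM plus DTM 1 (adjusted p = 0.0251), and that of Arg2 was 1.09 (adjusted p = 0.184). With the libraries of the 2 groups only, Mgl2 was the 1 gene called, with adjusted p = 0.0611 for Clec10a and 0.0736 for Egr2.

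Of 29 genes tested for arginine uptake, polyamines, proline and creatine, 1 rose and 1 fell in CM against control, a share near that of all genes (4.04% and 1.57%), and 0 were called in either comparison of CM plus DTM. The median log2 fold change was -0.18 for CM against control, and for CM plus DTM it was 0.21 against CM and -0.02 against control. The gene that rose was Sat1, which acetylates polyamines for export (1.30, SE 0.24, adjusted p = 0.0172), and the one that fell was Gamt, the last enzyme of creatine synthesis (-0.87, SE 0.20, adjusted p = 0.0403). Both calls were lost in several fits without 1 library, in 4 of 9 for Sat1 and 7 of 9 for Gamt, and that of Sat1 also with total count scaling (adjusted p = 0.0574). Odc1, which makes the polyamine putrescine from ornithine, averaged 145 ± 15.6 CPM in CM plus DTM, 102 ± 43.5 CPM in CM and 128 ± 15.2 CPM in control. Ass1, which recycles citrulline towards arginine, averaged 21.0 ± 2.31 CPM in CM plus DTM, 24.3 ± 12.1 CPM in CM and 13.3 ± 6.17 CPM in control.

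The cationic amino acid transporter Slc7a2, which brings arginine into activated macrophages, stood at 23.3, 6.28 and 4.64 CPM in CM plus DTM, at 3.91, 17.9 and 16 CPM in CM and at 9.25, 3.26 and 3.52 CPM in control. Like Arg1, it was highest in CM plus DTM 1 and low in CM 1, and it was not called in any comparison. Of 6 genes tested for tetrahydrobiopterin, the cofactor of nitric oxide synthases, 1 rose in CM plus DTM against control, where 1.5% of all genes did, and 0 were called elsewhere. That gene was Gch1, the first enzyme of the pathway, at 104, 46.8 and 53.5 CPM in CM plus DTM, 46.5, 51.5 and 54.8 CPM in CM and 26.2, 23.1 and 19.3 CPM in control. Its log2 fold change in CM plus DTM against control was 1.57 (SE 0.30, adjusted p = 0.0324), which was lost in 6 of 9 fits without 1 library (adjusted p up to 0.146).

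**Figure D4:**
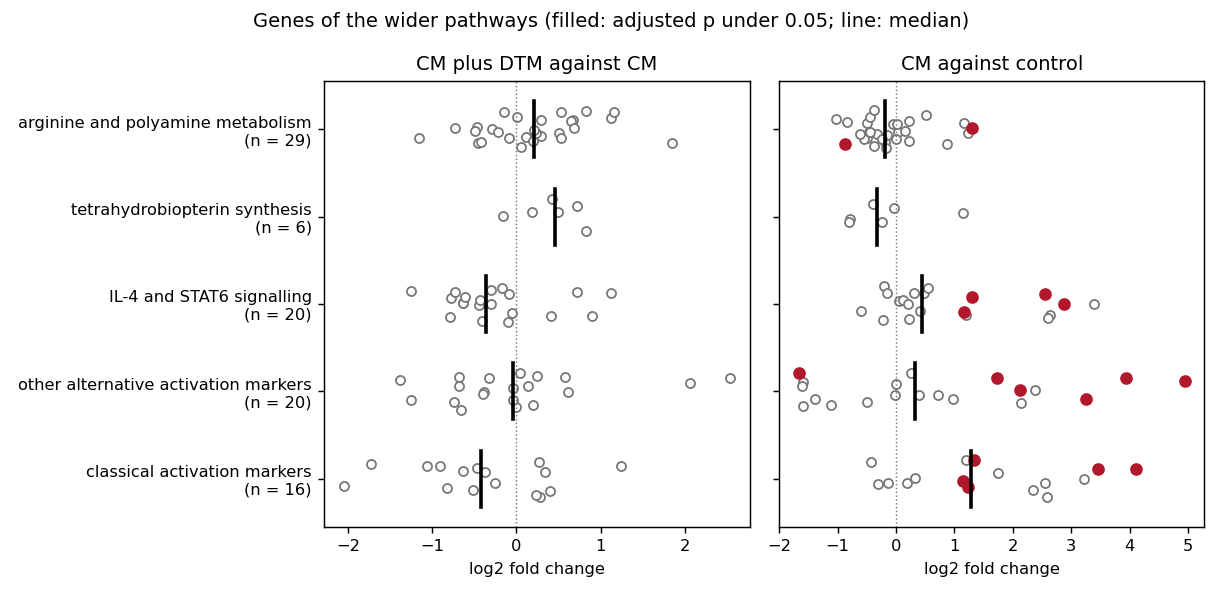
Log2 fold changes (horizontal axis) of the genes tested in 5 lists, for CM plus DTM against CM on the left and CM against control on the right; each point is a gene, filled where adjusted p is under 0.05, and the black line is the list's median. No point is filled on the left, and the classical activation list has the highest median on the right (1.29).

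Of 20 genes of interleukin 4 signalling tested, 4 rose and 0 fell in CM against control, with a median of 0.44, where 4.04% of all genes rose and 1.57% fell. In CM plus DTM against control 2 rose and 1 fell, where 1.5% of all genes rose and 0.946% fell. Il4ra, the interleukin 4 receptor chain, averaged 192 ± 22.7 CPM in CM plus DTM, 215 ± 66.5 CPM in CM and 184 ± 25.5 CPM in control, and Stat6 236 ± 30.9, 293 ± 12.4 and 338 ± 23.9 CPM in the same groups. Neither was called in any comparison, nor were Pparg (16.6 ± 6.71, 20.6 ± 1.66 and 18.9 ± 2.33 CPM in CM plus DTM, CM and control) and Irf4 (0.901 ± 0.273, 0.937 ± 0.147 and 0.673 ± 0.224 CPM in the same groups). Il4 itself had 4 to 9 counts in 8 libraries and 58 in CM 1, and Il13 had 2 counts in CM 1 and 0 elsewhere. Both were named after their values were seen.

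The 4 genes that rose with CM were Klf4, Socs3, Cebpb and Il2rg. Klf4, a factor that works with STAT6 on Arg1 in mouse macrophages, stood at 18.7, 12.6 and 13 CPM in CM plus DTM, at 55.1, 26.1 and 24.2 CPM in CM and at 5.83, 4.90 and 7.31 CPM in control. Its log2 fold change in CM against control was 2.55 (SE 0.36, adjusted p = 0.00535), and the call held in all 9 fits without 1 library. Socs3, a feedback inhibitor of cytokine signalling, rose by 2.87 (adjusted p = 0.00995), the transcription factor Cebpb by 1.30 (adjusted p = 0.0277) and the shared receptor chain Il2rg by 1.17 (adjusted p = 0.039). These 3 calls were lost in 2, 6 and 7 of the 9 fits without 1 library, and that of Il2rg with total count scaling (adjusted p = 0.0739). With DTM, relative to control, Socs1 (3.77, adjusted p = 0.0323) and Socs3 (2.14, adjusted p = 0.0463) rose, and the kinase gene Tyk2 fell (-0.73, adjusted p = 0.0433). Each of these calls was lost in 6 or more of the 9 fits.

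Of 20 further alternative activation markers tested, 5 rose and 1 fell in CM against control, with a median of 0.33, where 4.04% of all genes rose and 1.57% fell. Il1rn, the antagonist of interleukin 1 and a target of interleukin 4, stood at 51.6, 42.1 and 33.5 CPM in CM plus DTM, at 123, 101 and 107 CPM in CM and at 6.52, 7.23 and 7.98 CPM in control. Relative to control it rose by a log2 fold change of 3.93 in CM (SE 0.21, adjusted p = 0.000162) and of 2.55 in CM plus DTM (SE 0.20, adjusted p = 0.00309). Its groups lay in the same order as those of the lectins. Both calls held in all 9 fits. The glucan receptor Clec7a rose by 3.25 in CM against control (adjusted p = 0.00314), the eosinophil chemokine Ccl24 by 4.95 (adjusted p = 0.0256), the inhibitory receptor Cd200r1 by 2.12 (adjusted p = 0.0134) and the scavenger receptor Msr1 by 1.73 (adjusted p = 0.0456). Ccl24 had only 0, 10 and 15 counts in control 1, 2 and 3, and stood at 9.46, 2.55 and 2.99 CPM in CM 1, 2 and 3. The scavenger receptor Stab1 fell by 1.67 (adjusted p = 0.0194). Of these, Clec7a alone kept its call in all 9 fits. Of the same list 3 rose in CM plus DTM against control, Il1rn, Clec7a (2.59, adjusted p = 0.0181) and Cd200r1 (1.71, adjusted p = 0.0479), and 0 fell; Clec7a lost that call in 3 of 9 fits and Cd200r1 in 6, and with total count scaling (adjusted p = 0.0568). For CM plus DTM against CM, 0 of the 20 were called. Mcpt8 (3.63, adjusted p = 0.0346) and Siglecf (2.08, adjusted p = 0.0194) also rose in CM against control. They belong to the 7 eosinophil, basophil and mast cell markers, of which the others failed the count filter. Epx, Prg2, Ms4a2 and Il5ra had 0 counts in every CM library, and Cpa3 at most 1. In control 1 Prg2 had 60 counts. The part of these markers in the results was not tested.

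Some classical activation markers rose in CM as well. Of 16 genes tested, 5 rose and 0 fell in CM against control, where 4.04% and 1.57% of all genes did, with a median of 1.29, and 0 were called for CM plus DTM against either CM (median -0.42) or control (median 1.20). Acod1, which makes itaconate, stood at 21.9, 6.61 and 5.97 CPM in CM plus DTM, at 77.5, 30.5 and 34.1 CPM in CM and at 3.24, 4.80 and 4.91 CPM in control. Its log2 fold change in CM against control was 3.46 (SE 0.59, adjusted p = 0.0119). The costimulatory gene Cd86 (4.11, adjusted p = 0.0498) was highest in CM 1, at 90.4 CPM beside 7.55 and 7.72 in CM 2 and 3, and without that library its fold change was 1.91 (adjusted p = 0.0638). Cd80 (1.33, adjusted p = 0.0228) and Hif1a (1.15, adjusted p = 0.0423) also rose. Each of the 5 calls was lost in at least 3 of 9 fits without 1 library, and with total count scaling those of Cd80 (adjusted p = 0.0737), Cd86 (0.05) and Hif1a (0.0639) were lost too.

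Without CM 1 and CM plus DTM 1 edgeR called more genes. In CM against control 9.62% of the genes tested rose and 6.41% fell, in CM plus DTM against CM 1.8% rose and 3.17% fell, and relative to control 4.07% rose and 4.32% fell in CM plus DTM. Of the 9 genes it called 6, 3 and 4 in the same order. For CM against control, 2 of 29 arginine genes rose and 3 fell in that fit, 1 of 6 tetrahydrobiopterin genes rose, 8 of 20 interleukin 4 pathway genes rose and 1 fell, 8 of 20 alternative activation markers rose and 3 fell, and 10 of 16 classical markers rose. For CM plus DTM against CM, 1 of 29 arginine genes rose and 1 fell, and 7 of 20 interleukin 4 pathway genes, 4 of 20 alternative activation markers and 2 of 16 classical markers fell. Against control, CM plus DTM had 1 of 29 arginine genes and 1 of 6 tetrahydrobiopterin genes higher, 7 of 20 interleukin 4 pathway genes higher and 2 lower, 6 of 20 alternative activation markers higher and 3 lower, and 2 of 16 classical markers higher.

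The search for similar patterns took genes averaging 5 CPM or more and compared log2 levels, each less its own control mean, over the 9 libraries. Nearest to Arg1 were Apol9b, Ccl2 and Ak4, with root mean square differences of 0.42, 0.527 and 0.531. Nearest to Egr2 were Ifi203, Ifi204 and Ifi211 (0.231, 0.28 and 0.325). Nearest to Clec10a were Gbp9, Pde7b and Mx2 (0.33, 0.381 and 0.387), and nearest to Mrc1 Hist1h2bg, Ifi207 and Homer1 (0.21, 0.216 and 0.217). Arg2 lay nearest to Slfn8, Pim1 and Akap7 (0.449, 0.464 and 0.482). For Mgl2 the nearest genes were Ifi206, Ifi213 and Mmp13, at 1.1, 1.11 and 1.18.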

How the data were processed

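The authors deposited a table of raw counts per gene for 9 mouse libraries, 3 per group, with gene symbols. The submitters' processing notes name HISAT2 2.1.0 (an aligner), Trimmomatic 0.36, DESeq2 1.12.4 and FastQC 0.11.2, and the builds named are GRCh38 and mm39, with no role given. The counting program, its strand setting and its annotation are not given in the sources used here. Per the labels' protocols, mRNA libraries were read on a DNBSEQ-T7.

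Of 51826 gene rows, 26492 had a count and 15429 passed edgeR's filterByExpr. Counts were scaled by TMM, and all 9 libraries were fitted by group in 1 model with edgeR 4.0.16 (glmQLFit, glmQLFTest; R 4.3.3), with Benjamini-Hochberg adjustment over all genes tested. DESeq2 1.42.0 and limma-voom (limma 3.58.1) were alternatives, with other scalings, no count filter, the 2 compared groups only, each library left out, and both CM 1 and CM plus DTM 1 left out. The Arg1 to Nos2 ratio was tested with SciPy 1.17.1. Values of genes that share sequence, such as Mgl2 with Clec10a and Chil3 with Chil4, are uncertain where reads were divided. A floor of 3 counts stands for a count of 0, and covers counting error only.

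The genes and lists were chosen with earlier results of these data known. Genes named beyond the 9 were those called in any comparison with a mean of at least 1 CPM, up to 6 a list by size, plus Odc1, Ass1, Slc7a2, Gch1, Il4ra, Stat6, Irf4, Pparg and the 3 nearest in pattern; 1 gene that this rule names is not reported here. The libraries carry numbers 1 to 3 in each group. In CM plus DTM and CM, same-numbered libraries deviated together (correlation 0.125 to 0.139, and all 6 libraries correlated best with their own number). The labels state no pairing, and the values reported come from the fit without pairs. With the number as a block over all 9 libraries, 0 genes were called in CM plus DTM against CM, as without it.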

Additional observations from a re-analysis of the deposited data

How the results depend on the processing

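The 9 fits that leave out 1 library each called 256 to 1884 genes in CM against control (865 with all libraries), 0 to 1876 in CM plus DTM against CM (0) and 15 to 1766 for CM plus DTM against control (378). Of the 9 genes they called 3 to 7, 0 to 1 and 0 to 5 in those comparisons, against 6, 0 and 3 with all libraries. The 7 came without CM plus DTM 1, and were the 6 called with all libraries and Nos2, which passed the count filter there. Chil3 was not among them. DESeq2 called 1937, 2827 and 1980 genes, with 2 of the 9 called for CM plus DTM against CM and 5 against control. The 2 compared groups alone gave 1360, 1 and 118 genes, with 1 of the 9 in CM plus DTM against control. Leaving out CM 1 and CM plus DTM 1 gave 2503, 776 and 1311 genes, with 3 of the 9 in CM plus DTM against CM. In CM plus DTM against CM total count scaling called 1 gene and edgeR with legacy = FALSE called 6. With the replicate number as a block 149 genes, and 1 of the 9, were called in CM plus DTM against control, where the calls of Clec10a (adjusted p = 0.0512) and Egr2 (0.073) were lost, and that of Arg1 was lost in CM against control (0.0685); the block changed no other call of the 9. Same-numbered libraries correlated at -0.0613 to 0.0479 in CM against control (2 of 6 best with their own number). In CM plus DTM against control they correlated at 0.077 to 0.318 (3 of 6). Whether they are pairs cannot be settled from these correlations. Arg1 in CM plus DTM against CM was 0.11 by limma-voom, and -0.81 to 0.19 without 1 library; the cause was not tested. The Arg1 to Nos2 log2 ratio without 1 library differed by -3.26 to -0.594, 2.46 to 5.29 and 1.01 to 3.06 in the 3 comparisons, and every block p was 0.5; with 2 counts added and CM 1 left out, chosen after seeing the data, CM minus control was 1.20 and CM plus DTM minus CM 1.20. For the 7 genes tested, 105 of 126 fold changes under the alternatives kept direction and call in CM against control, 115 of 126 in CM plus DTM against CM and 105 of 126 in CM plus DTM against control. Nos2 and Retnla are limited by depth.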

Other observations

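Among markers of other blood cells, the 7 eosinophil, basophil and mast cell genes summed to 9.7 to 10.8 CPM in CM plus DTM, 6.56 to 37.2 CPM in CM and 2.81 to 4.05 CPM in control. Mcpt8, a basophil protease, stood at 8.52, 5.13 and 6.68 CPM in CM plus DTM, at 2.13, 29.1 and 31.1 CPM in CM and at 1.32, 2.22 and 1.47 CPM in control. Siglecf, a lectin of eosinophils and some macrophages, stood at 1.46, 3.85 and 3.95 CPM in CM plus DTM, at 4.41, 6.45 and 6.13 CPM in CM and at 1.501, 1.17 and 1.34 CPM in control. Epx, Prg2, Ms4a2 and Il5ra of the same list had 0 counts in every CM library, and Cpa3 at most 1. The 6 T and NK cell genes summed to 5.7 CPM or less in every library, and the 5 B cell genes to 4.31 CPM or less. These genes were named after their values were seen.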
